A study of Mus musculus with 3 samples.

Results

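The genes described here encode the proteins of the cytosolic ribosome, measured in NIH3T3 cells, an established line of mouse fibroblasts. A gene was included if its symbol was Rpl or Rps followed by a number and at most 1 further letter, or was Rplp0, Rplp1, Rplp2 or Rpsa. This gave 81 genes with 170 probes, of 20660 genes that could be named on the arrays and 55681 probes in all. Of the 81 genes, 50 encode large subunit proteins and 31 encode small subunit proteins. No measured value entered the choice.

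The series holds 3 one-colour Agilent arrays, 1 for each of 3 conditions. Wild-type NIH3T3 cells in medium with serum received nothing (None), 20 µM AR7 or 20 µM BMS614, and RNA was taken after 24 h. Both compounds were studied as modulators of retinoic acid receptor alpha, a nuclear receptor for vitamin A derivatives. They were dissolved in DMSO, and the labels do not say whether the None culture received DMSO. With 1 array a condition there is no replicate error and no test of a condition, and each difference below compares 2 arrays.

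The cytosolic ribosome translates nuclear mRNAs, and its small subunit reads the mRNA while its large subunit joins the amino acids. Most of its proteins are present in equal numbers, and their mRNAs are among the most abundant in growing cells. Many of these mRNAs start with a C followed by a run of pyrimidines, called a terminal oligopyrimidine (TOP) tract, through which mTORC1 signalling controls their translation. A change in translation alone does not show on an array of total RNA.

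The start sites below show the tract in RefSeq sequence of assembly GRCm38.p6, for members whose values are described further on. Each line gives 10 bases before and 15 bases from the listed start, 5′ to 3′ on the strand of the gene, with the tract in capitals.
Rps21, chr2:180257369-180257393, plus strand: aggacccgccCTCCTgcccaatagt
Rps18, chr17:33955651-33955675, minus strand: cacttccgctCTCTCTTCCacagga
Rps27, chr3:90213634-90213658, minus strand: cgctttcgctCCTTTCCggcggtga
Rplp2, chr7:141447641-141447665, plus strand: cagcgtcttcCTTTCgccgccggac
Rps6, chr4:86857353-86857377, minus strand: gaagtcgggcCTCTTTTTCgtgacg
Rpl32l, chr10:20208429-20208453, plus strand: aaatgaccagCTTCTTCCTTggtgc

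The table of starts held 61 of the 81 genes. A C followed by at least 4 C or T stood exactly at 14 of their 73 listed starts, or 19.2%, against 823 of 32851 starts, or 2.51%, over all genes of the table. Within 5 bases of the start on the gene's strand, the shares were 42.5% and 18.3%. A listed start can lie a few bases from the start used in these cells, and a gene without the tract here was not shown to lack it.

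All 81 genes had a probe, and the members were among the brightest features of the arrays. On all 3 arrays 166 of the 170 probes passed the scanner software's mark for signal well above background, and so did the brightest usable probe of 80 genes. Below, each gene is given by that probe unless stated otherwise, and levels are not compared between probes. The exception was Rpl3l, a paralog of Rpl3 known from skeletal muscle, whose only probe did not pass on the None array. Of the 170 probes, 144 were so bright that the software read them from a second scan at low gain on every array, and none was saturated. The median intensity of the members was 189692 on None, 204082 on AR7 and 234931 on BMS614. The 75th percentile of all spots differed between the arrays in the same order, at 692, 780.5 and 909, so these intensities are not a measure of the members alone. Of 8 fibroblast markers, all passed on the 3 arrays. Of the markers of other cell types, Epcam and Krt18 passed on none, while 8 did on all 3, namely Cdh1, Krt8, Cd3e, Kdr, Pecam1, Acta1, Des and Myod1. Their part in the results was not tested.

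Most ribosomal protein genes differed little between conditions, as did other bright genes. No member differed by 2-fold in any of the 3 comparisons. Over all named genes, 1.03% did so in AR7 against None, 1.06% in BMS614 against None and 0.994% in AR7 against BMS614. At 1.5-fold, 2 members passed in AR7 against None, Rpl7a and Rpl3l, where the share of all named genes was 3.89%. Rpl7a alone passed in BMS614 against None, where the share was 4.27%, and Rpl3l alone in AR7 against BMS614, where it was 4.69%. Of the 80 members well above background on every array, 78 lay within 1.2-fold in AR7 against None, 78 in BMS614 against None and all 80 in AR7 against BMS614. Over all named genes, 15.1%, 17% and 17.2% passed 1.2-fold in the 3 comparisons, dim genes included. Among named genes well above background on every array the shares were 12.1%, 14.2% and 11.9%. Among the 127 other genes at least as bright as 9 in 10 members they were 0%, 1.57% and 3.15%, close to the 2.5%, 2.5% and 0% of the members, so staying within 1.2-fold was general to bright genes.

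The median log2 difference of the 80 genes was -0.006 in AR7 against None, 0.023 in BMS614 against None and -0.019 in AR7 against BMS614. Over all named genes the medians were -0.003, 0.001 and -0.001. The middle of the members was narrower than that of all genes. In AR7 against None their quartiles lay at -0.05 and 0.03, against -0.08 and 0.08 for all named genes, and in BMS614 against None at -0.02 and 0.06, against -0.09 and 0.09. Bright probes are measured with less error. The 127 other bright genes had quartiles at -0.04 and 0.04 in AR7 against None, and at -0.08 and 0.04 in BMS614 against None. Both comparisons with None use the same None array, so a spot that was off on it moves both.

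**Figure D1:**
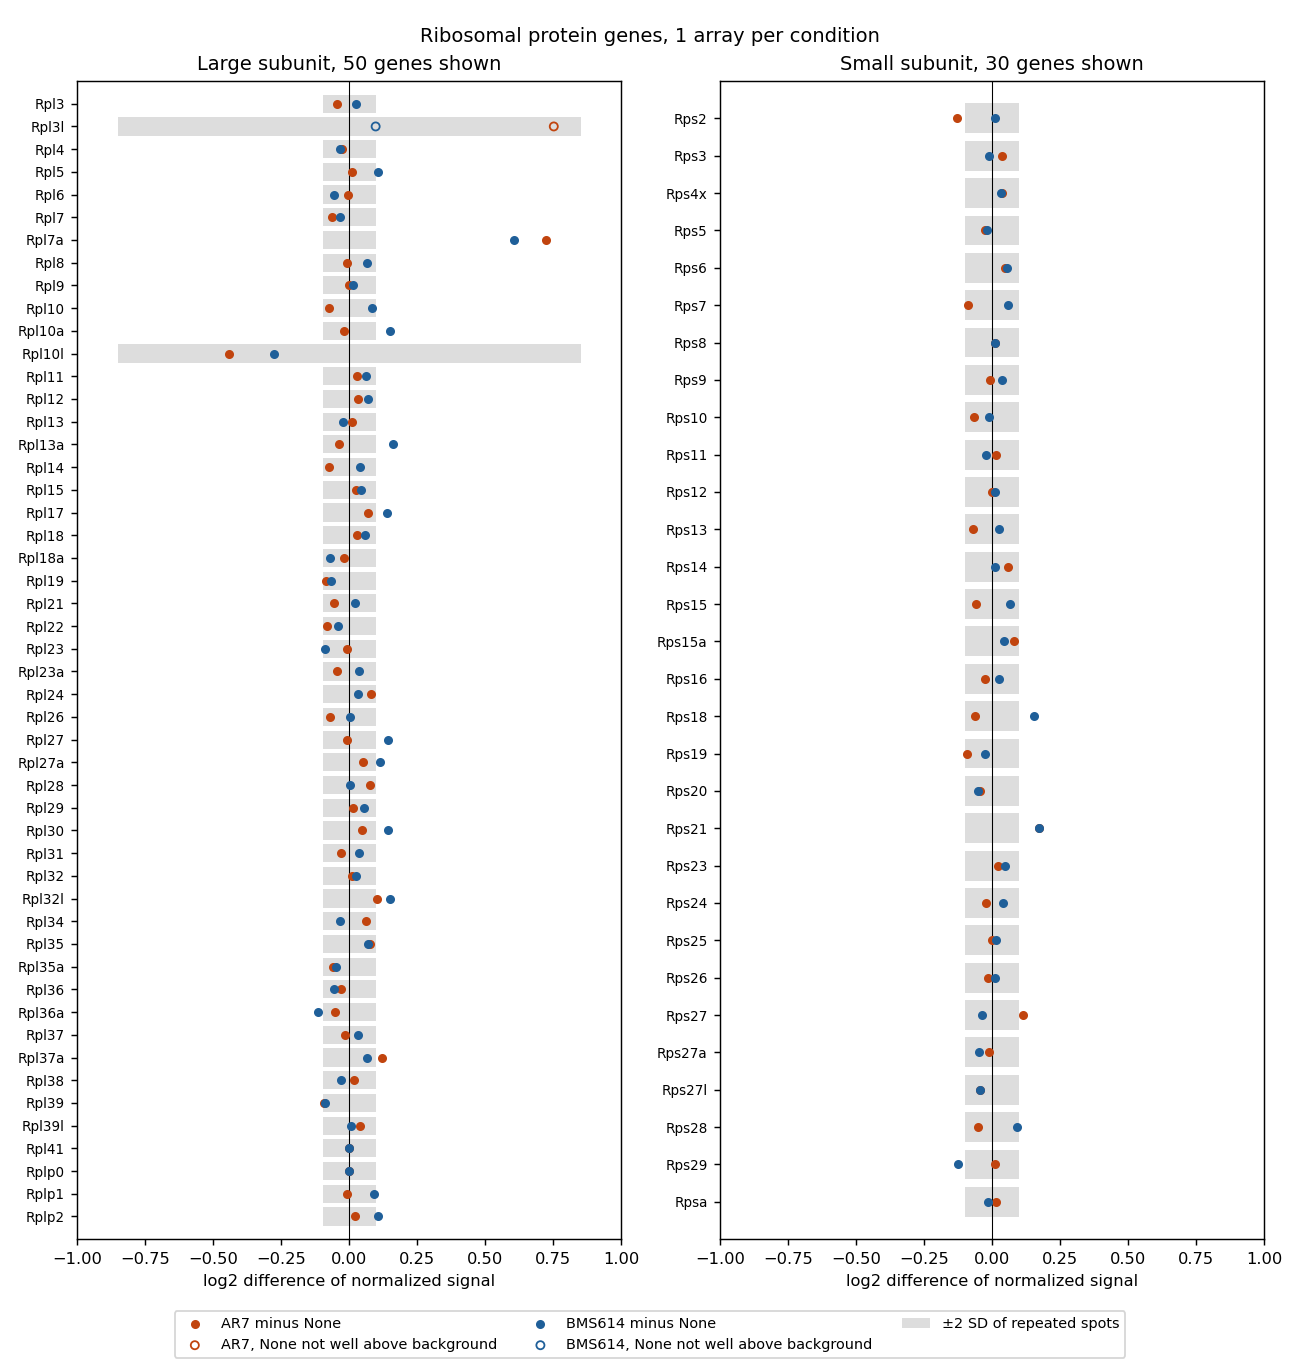
Log2 difference of normalized signal from the None array for the ribosomal protein genes, AR7 in red and BMS614 in blue, with large subunit genes on the left and small subunit genes on the right. Grey bars span ±2 SD of the differences between repeated spots at that signal, taking the larger SD of the 2 comparisons, and open circles mark Rpl3l, which was not well above background on None. Most points lie inside the grey bars, and Rpl7a stands apart at 0.72 and 0.60.

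The technical error was read from 267 other probes that are printed 10 times on each array. Between repeated spots of these probes the log2 difference had an SD of 0.049 in AR7 against None, 0.045 in BMS614 against None and 0.037 in AR7 against BMS614 at the signal of nearly all members. The brightest such probe had a log2 signal of 17.98, and 28 members were brighter still, so their error is taken from dimmer spots. A member, Rpl23, has 1 dimmer probe that was itself printed 10 times. Its log2 difference was -0.005 ± 0.044 in AR7 against None and 0.002 ± 0.049 in BMS614 against None (SD, 10 spots). This error covers the printing and reading of spots and leaves out the culture, the RNA and the labelling.

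In AR7 against None, 6 members were higher and 1 was lower by more than 2 SD of repeated spots. Of all named genes on all 3 arrays, 9.24% were higher and 8.34% lower by that measure, and of the 127 other bright genes 10.2% and 3.94%. Among the 6 were Rpl7a, Rps21, Rpl37a, Rps27 and Rpl32l. The 1 that was lower was Rps2, a protein at the entry of the mRNA channel. In either direction 8.75% of the members passed, against 17.6% of all named genes and 14.2% of the other bright genes. With the RMA background scaled to the 75th percentile 24 of the 80 passed in place of 7, and with the processed signal 45, so the share is tied to the scaling. The 127 other bright genes moved too, to medians of -0.058 and -0.089 relative to all probes.

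In BMS614 against None, 14 members were higher and 2 were lower by more than 2 SD. Of all named genes 13.2% were higher and 11.8% lower, and of the 127 other bright genes 9.45% and 22.8%. In either direction 20% of the members passed, against 25.1% of all named genes and 32.3% of the other bright genes. Those that were higher included Rpl7a, Rps21, Rpl13a, Rps18, Rpl10a, Rpl32l, Rpl27, Rpl30, Rpl17, Rpl27a, Rpl5, Rplp2 and Rplp1, and those that were lower were Rps29 and Rpl36a. With the RMA background scaled to the 75th percentile 50 passed in place of 16. Relative to all probes 9 of the 80 members were then higher and 71 lower, so the direction turned. The 127 other bright genes moved too, to a median of -0.15.

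In AR7 against BMS614, 5 members were higher on AR7 and 17 were lower by more than 2 SD, against 13.6% and 13.8% of all named genes. In either direction 27.5% of the members passed, against 27.4%. Of the 127 other bright genes 28.3% were higher and 11% lower, 39.4% in all. Among the members at the bright end Rps18 differed most, by -0.22, followed by Rpl13a at -0.20, Rpl10a at -0.17, Rpl10 at -0.16 and Rpl27 at -0.15. The near-background Rpl3l and Rpl10l differed by 0.66 and -0.17, within 2 SD at their signal. The 5 that were higher on AR7 were Rps27 at 0.15, Rps29 at 0.14, Rpl7a at 0.12, Rpl34 at 0.09 and Rpl23 at 0.08. Relative to all probes and scaled to the 75th percentile, 60 of the 80 members were higher on AR7 and 20 lower. Rpl10 and Rpl10a became -0.003 and -0.02, and Rps18 became -0.19, so these directions and sizes depend on the scaling. The compounds were given at the same dose and time, and no interval for a difference between them can be had from 1 array each.

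**Figure D2:**
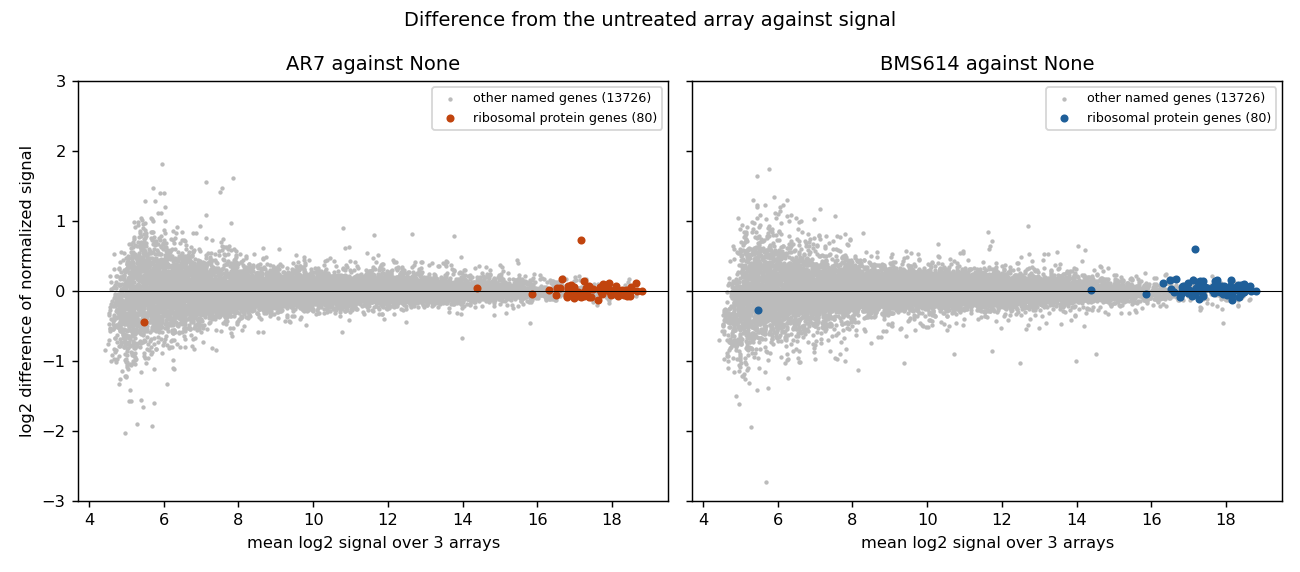
Log2 difference from the None array (vertical axis) against the mean log2 signal over the 3 arrays (horizontal axis) for named genes well above background on every array, with ribosomal protein genes in colour. All but a few of the 80 members lie at the bright end, where the differences of all genes are small.

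Rpl7a, a large subunit protein, had the largest difference from None of the 80 members well above background on every array. The log2 signal of its brightest probe was 16.74 on None, 17.46 on AR7 and 17.34 on BMS614, and its intensities were 98140, 176410 and 187329. The None array is low and the compound arrays are close together. The log2 difference was 0.72 for AR7, or 14.7 SD of repeated spots, and 0.60 for BMS614, or 13.3 SD. This probe is a single spot on each array.

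The other 3 probes of Rpl7a did not share this difference. Their log2 differences in AR7 against None were 0.03, -0.16 and 0.04, and in BMS614 against None 0.08, -0.12 and 0.02. The difference of the gene thus rests on 1 of its 4 probes, and all 4 were read at low gain on every array.

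Rps21, a small subunit protein with a tract at 1 of its 2 listed starts, was higher with both compounds. Its log2 signal was 16.55 on None, 16.73 on AR7 and 16.72 on BMS614. Both compound arrays lie above None by 0.17, which is 3.5 SD for AR7 and 3.8 SD for BMS614. The gene has a single probe with 1 spot. Scaled to the 75th percentile in place of quantile normalization, the differences relative to all probes were 0.14 and 0.11.

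Rps18, at the head of the small subunit, and Rpl13a, known also for a role outside the ribosome in silencing mRNAs, were higher with BMS614 on 1 probe. The log2 signal of Rps18 was 16.48 on None, 16.41 on AR7 and 16.63 on BMS614. Its second probe read 16.13, 16.06 and 16.08, so only the first is highest on BMS614. For Rpl13a the brightest probe read 17.08, 17.04 and 17.24, while both other probes were lower on BMS614 than on None, by -0.05 and -0.08.

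Rpl10a, a large subunit protein near the exit of the transfer RNAs, was the clearest case of agreement between probes. Its brighter probe read 18.08 on None, 18.06 on AR7 and 18.23 on BMS614. Its other probe read 17.90, 17.89 and 18.03. On both, None and AR7 are alike and BMS614 is higher, by 0.15 and 0.13. Relative to all probes and scaled to the 75th percentile, the brighter probe was -0.06 in BMS614 against None, so its direction depends on the scaling.

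Among the 16 members past 2 SD in BMS614 against None, 11 had another probe well above background. In 3 of them, Rpl10a, Rpl27 and Rpl30, every other probe pointed the same way, and in Rpl10a alone the other probe also passed 2 SD. In the other 8 at least 1 probe pointed the other way or did not differ. In AR7 against None, 4 of 7 had another probe. In 2 of them, Rps2 and Rps27, every other probe pointed the same way, and in neither did every one pass 2 SD. In AR7 against BMS614, 17 of 22 had another probe, and in 13 every other probe pointed the same way. Rpl10a, Rpl23a, Rpl27 and Rps2 were lower on AR7 than on BMS614 by more than 2 SD on all their probes. Relative to all probes and scaled to the 75th percentile, their brighter probes gave -0.02, 0.01, -0.05 and -0.05. The size of these differences, and for Rpl23a the direction, thus depends on the scaling.

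**Figure D3:**
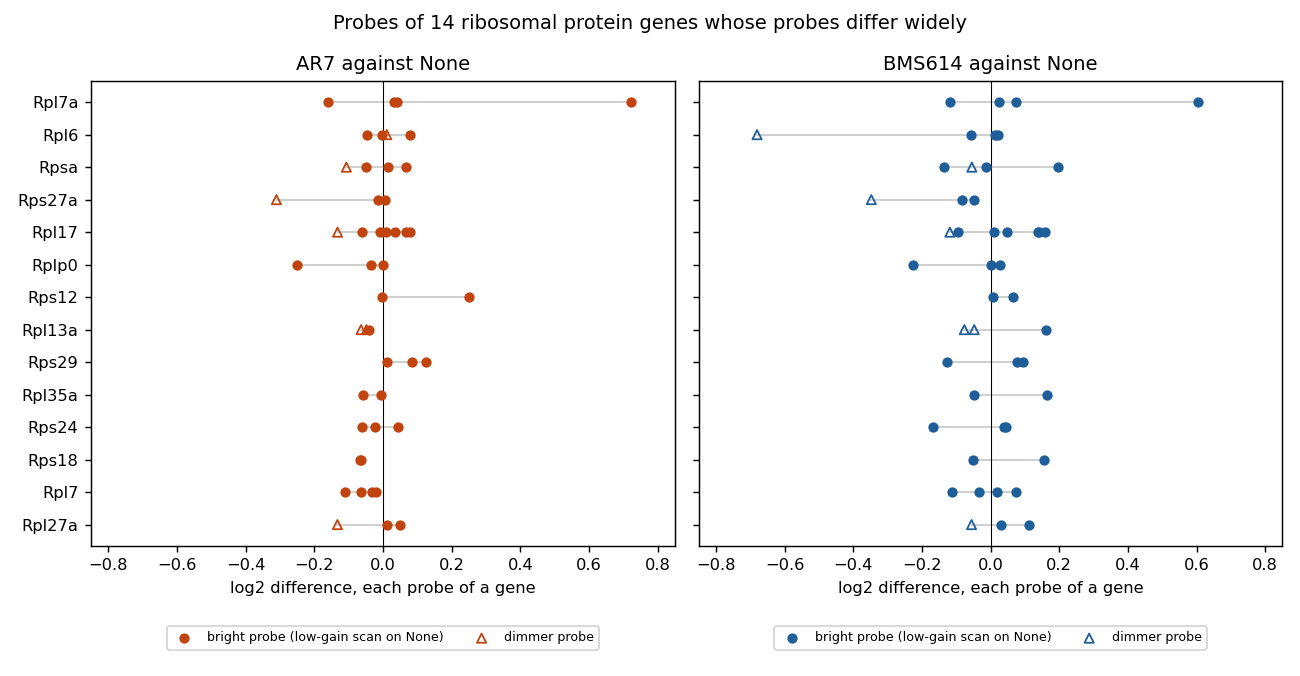
Log2 difference from the None array for each probe of 14 ribosomal protein genes whose probes differ widely, with filled circles for probes read from the low-gain scan on None and triangles for dimmer probes. A grey line joins the probes of a gene, and the 4 probes of Rpl7a span from -0.16 to 0.72 in AR7 against None.

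The SD between single probes of a gene was at least as large as the SD between gene means. Each gene mean averages at least 2 probes, so the 2 measures are not alike. Over 43 members with at least 2 probes read at low gain on every array, 109 probes in all, the SD between the probes of a gene was 0.063 in AR7 against None and 0.085 in BMS614 against None, with Rpl7a left out. The SD between the gene means was 0.050 and 0.051. With Rpl7a included the SD between probes was 0.103 and 0.107. In AR7 against BMS614, which does not use the None array, it was 0.064 without Rpl7a and 0.065 with it, against 0.064 between gene means without it.

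Further bright probes stood apart from the rest of their gene. Rplp0, the base of the stalk, has a probe that read 17.89 on None, 17.64 on AR7 and 17.67 on BMS614, lower with both compounds by 0.25 and 0.23. The other 2 probes of Rplp0 differed by at most 0.03 in size. The second probe of Rps12 read 17.99, 18.24 and 18.06, highest on AR7, while its first probe read 18.31, 18.30 and 18.31. A probe of Rpsa, also known as the laminin receptor, was higher on BMS614 than on None by 0.20, and another was lower by 0.14. Dim probes spread more. A probe of Rpl6 near background differed by -0.68 in BMS614 against None, while the bright ones of that gene lay between -0.06 and 0.02.

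The stalk of the large subunit, built from Rplp0, Rplp1 and Rplp2, recruits the elongation factors. Rplp1 read 17.67 on None, 17.66 on AR7 and 17.76 on BMS614, and Rplp2 read 18.45, 18.47 and 18.55. In both genes BMS614 is highest and the others are alike, with differences from None of 0.09 and 0.10 for BMS614. Relative to all probes and scaled to the 75th percentile these became -0.06 and -0.10, so the direction turned. Rplp0 was the brightest probe of its array on all 3, and quantile normalization gives equal ranks equal values, so its differences of 0.00 are set by the method. The same holds for Rpl41, which ranked 3 on every array.

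Rpl5 and Rpl11 enter the large subunit together with its smallest ribosomal RNA, and bind Mdm2 when assembly fails. Rpl5 read 16.27 on None, 16.28 on AR7 and 16.37 on BMS614. Rpl11 read 17.63, 17.66 and 17.69 on its brightest probe. Rpl5 differed by 0.11 with BMS614, or 2.3 SD, and Rpl11 by 0.06, or 1.4 SD. Relative to all probes and scaled to the 75th percentile, these became 0.05 and -0.09, so they depend on the scaling. With AR7 both were within 0.03 of None.

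Rpl4, Rpl17 and Rpl39 line the tunnel through which the new protein leaves. Rpl4 differed by -0.03 with either compound. Rpl39 differed by -0.09 with either on its brightest probe by 0.00 and 0.06 on its second, and by 0.01 and -0.10 on its dimmest. Rpl17 was higher by 0.07 with AR7 and 0.14 with BMS614, and of its 6 other probes 4 were higher with BMS614 and 2 lower. Of the 6 genes placed around the tunnel exit, Rpl19, Rpl22, Rpl23a, Rpl26, Rpl31 and Rpl35, 5 were lower with AR7, at a median of -0.06, and none passed 2 SD. With BMS614 their median was 0.02.

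In the small subunit, Rps6 is the substrate of the S6 kinases downstream of mTORC1. It read 17.33 on None and 17.38 on either compound array, a difference of 0.05 with each, about 1 SD. Its other 2 probes differed by 0.00 and -0.05 with AR7 and by 0.09 on both with BMS614. Rps2, Rps3, Rps15 and Rps23 lie where the mRNA enters and is decoded. Rps2 read 17.68 on None, 17.55 on AR7 and 17.69 on BMS614, so it was low on AR7 alone, by -0.13. Its other probe differed by -0.02 with AR7 and 0.09 with BMS614. Rps3, Rps15 and Rps23 lay between -0.06 and 0.07 in both comparisons with None.

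Rps26, Rps28, Rps14 and Rpsa lie where the mRNA leaves. Their median difference was 0.00 with AR7 and 0.01 with BMS614. Rps28 was 0.09 with BMS614 and -0.05 with AR7. Rps27a, made as a fusion with ubiquitin, read 18.11 on None, 18.10 on AR7 and 18.06 on BMS614. A dim probe of Rps27a differed by -0.31 and -0.35, which is 0.83 SD and 1.1 SD at that signal.

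Rps27 read 17.90 on None, 18.01 on AR7 and 17.86 on BMS614 on its brightest probe. It was higher with AR7 on all 4 of its probes, by 0.11, 0.17, 0.02 and 0.04, and passed 2 SD on 2 of them. Rpl37a, with a single probe, read 18.58, 18.70 and 18.65. Rps29 read 18.20, 18.21 and 18.07 on its brightest probe, lowest on BMS614, while both other probes were higher on BMS614 than on None, by 0.10 and 0.08. Rpl36a was lower with BMS614 on its brightest probe, at a difference of -0.12, and its others gave 0.05 and -0.08.

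By subunit, the median of the large subunit was -0.004 with AR7 and 0.030 with BMS614, and that of the small subunit was -0.008 and 0.011. Of the genes that passed 2 SD with BMS614, 11 of the 14 that were higher were large subunit genes, which are 50 of the 81 members. The share of large subunit genes that were higher by that measure was 22.4%, against 9.68% of small subunit genes and 13.2% of all named genes. Another probe pointed the other way in Rpl7a, Rpl13a, Rpl17, Rpl27a and Rps18. Scaled to the 75th percentile, the highest of the 80 were Rpl7a at 0.50, Rps21 at 0.11 and Rps18 at 0.09. The next large subunit gene was Rpl5 at 0.05, so this contrast depends on the scaling. No difference between the subunits can be tested here.

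Mutations in 15 of the members cause Diamond-Blackfan anaemia, an inherited failure of red cell production. Of these, 6 were higher and 9 lower with AR7, at a median of -0.02, and 10 were higher and 5 lower with BMS614, at a median of 0.04. Rps19, the gene most often mutated, read 17.01 on None, 16.92 on AR7 and 16.99 on BMS614, lowest on AR7 by -0.09, or 1.9 SD. Rpl27 had the largest difference of the 15 with BMS614, 0.14. Relative to all probes and scaled to the 75th percentile, most of the 15 were lower with BMS614 and Rpl27 was -0.01, so the direction depends on the scaling.

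Some members are paralogs of another member, marked by a final l in the symbol. Rpl39l, known from the testis, differed by 0.04 with AR7 and 0.01 with BMS614. Rps27l, a target of p53, differed by -0.05 with either compound, and Rpl32l by 0.10 and 0.15. Rpl10l, also known from the testis, was close to background, with intensities of 157 on None, 166 on AR7 and 181 on BMS614. Its differences of -0.44 and -0.28 were 1.0 SD and 0.79 SD at that signal. Rpl3l had intensities of 132, 169.5 and 159, and None was not well above background. It read 1.68-fold higher on AR7, a log2 difference of 0.75 or 1.8 SD, where the SD of repeated spots on the log2 scale is 0.425. Of the common forms, Rpl3 differed by -0.05 and 0.02 and Rpl10 by -0.08 and 0.08. Rps4x, encoded on the X chromosome, differed by 0.04 and 0.03. Many ribosomal protein genes have near-identical processed pseudogenes and paralogs, and a probe may take up their transcripts as well.

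The direction of the whole group depended on the scaling. With quantile normalization the median of the members in BMS614 against None was 0.025 relative to all probes, with 54 genes higher and 26 lower. When the RMA background was kept and each array was only scaled to its 75th percentile, the median was -0.12, with 9 higher and 71 lower. In AR7 against None the median went from -0.001 to -0.068. In AR7 against BMS614 it went from -0.019 to 0.061. Scaling on the spike-in spots gave the same values relative to all probes, which then shifted as a whole by 0.10 with AR7 and 0.24 with BMS614.

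The shift under linear scaling was larger for brighter members. In BMS614 against None, all 40 of the brighter members were lower than the median of all probes under the 75th percentile, at a median of -0.20. The 40 dimmer members had a median of -0.069, with 9 higher and 31 lower. With quantile normalization the medians of the same sets of 40 were 0.014 and 0.031. Under linear scaling Rplp0 was the lowest of the 80 members, so it gives the extreme of this shift. Its intensity was 437022 on None and 470015 on BMS614, and it was -0.33 relative to all probes under linear scaling.

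Other genes of the same brightness moved with the scaling too. The 127 bright genes that are no ribosomal protein genes had a median of -0.016 in BMS614 against None with quantile normalization and -0.15 scaled to the 75th percentile. The 73 members of that brightness had medians of 0.026 and -0.13. Their distance from the other bright genes lay between 0.021 and 0.042 in BMS614 against None. The scalings of the RMA background and the removal of the trend move equally bright genes alike, and gave 1 and the same distance. In AR7 against None it lay between -0.013 and -0.005, and in AR7 against BMS614 between -0.050 and -0.026. Each distance compares 2 arrays, and its error was not measured.

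**Figure D4:**
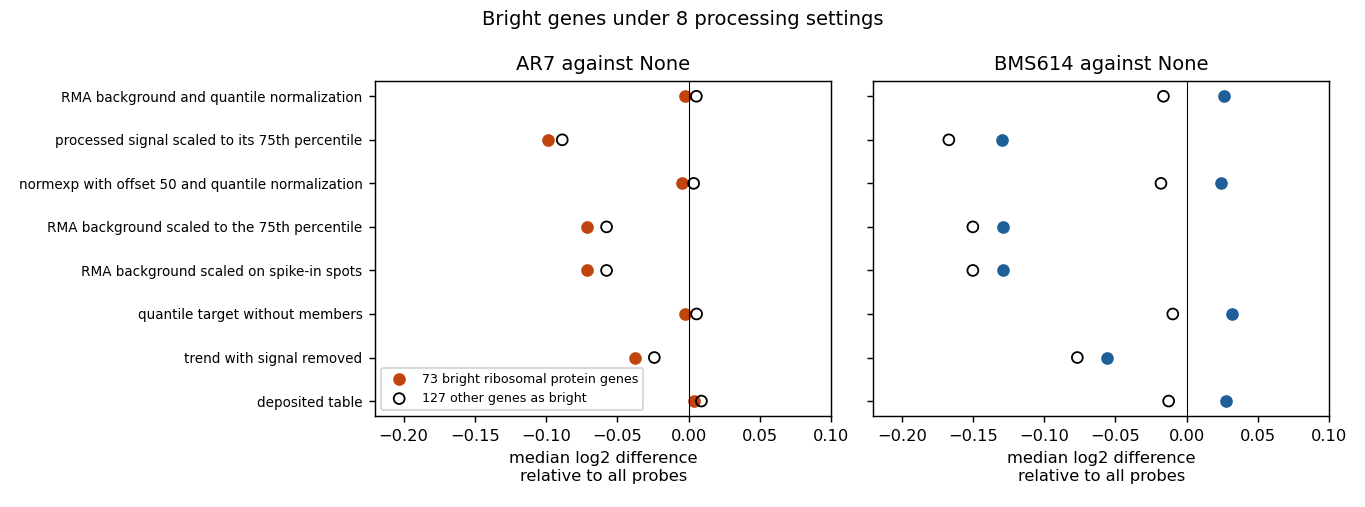
Median log2 difference from the None array, relative to the median of all probes, of the 73 ribosomal protein genes among the brightest (filled) and of the 127 other genes as bright (open) under 8 processing settings. Both sets move to the left together under linear scaling, in BMS614 against None to -0.13 and -0.15.

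The members with a tract at their listed start were compared with those that have none within 5 bases. The 14 with a tract had a median of 0.04 with AR7 and 0.04 with BMS614, with 10 higher and 4 lower in each. The 31 without one had medians of -0.01 and 0.01, with 11 higher and 19 lower with AR7 and 20 higher and 10 lower with BMS614. All 14 with a tract lay within 1.2-fold of None in both comparisons. Relative to all probes and scaled to the 75th percentile, only Rps18 and Rps21 of the 14 were higher with BMS614, at 0.09 and 0.11. With AR7 the 14 lay on both sides under that scaling, so their direction depends on the scaling. The quartiles of the 14 were -0.04 and 0.08 with AR7, and overlap those of the 31, -0.06 and 0.01.

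Other genes of translation and ribosome assembly were set beside the members. Of the ribosome components outside the symbol rule, Fau, a fusion that yields a small subunit protein, had intensities of 250126 on None, 281353 on AR7 and 326455 on BMS614 and differed by 0.08 and 0.15. The scaffold Rack1 differed by 0.00 and -0.04. Relative to all probes and scaled to the 75th percentile, all 3 components outside the rule were lower with BMS614, so the direction of Fau turned. Among 21 other mRNAs known to carry a TOP tract, 12 were higher and 9 lower with AR7, and 10 were higher and 11 lower with BMS614. With the processed signal scaled to the 75th percentile the counts were 3 and 18 with AR7 and 5 and 16 with BMS614. Npm1, a nucleolar chaperone, was the highest with either compound at 0.22 and 0.18, and Eif4a2 was the lowest at -0.10 and -0.26.

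Mitochondrial ribosomal proteins form a separate ribosome that translates the mRNAs of mitochondrial DNA. Of 77 such genes, 29 were higher and 48 lower with AR7, at a median of -0.02, and 46 were higher and 31 lower with BMS614, at a median of 0.03. The median with BMS614 became -0.015 relative to all probes when the software's processed signal was divided by its 75th percentile, and that with AR7 was below 0 under all 8 settings. By 2 SD of repeated spots, 2 were higher and 5 lower with AR7, and 13 were higher and 5 lower with BMS614. These are 9.09% and 23.4% of the 77, against 17.6% and 25.1% of all named genes. Mrpl2 differed most upwards with AR7 at 0.23 and Mrpl22 with BMS614 at 0.19, and Mrpl46 and Mrps10 most downwards at -0.17 and -0.20.

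**Figure D5:**
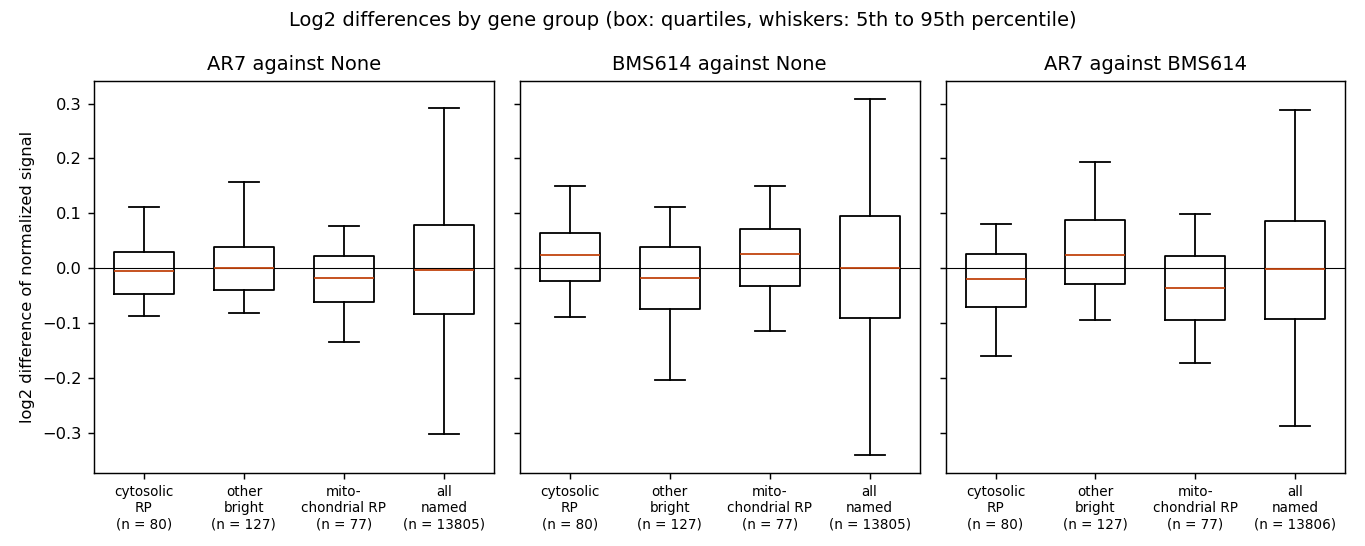
Log2 differences in the 3 comparisons for cytosolic ribosomal protein genes (RP), other genes as bright, mitochondrial ribosomal protein genes and all named genes well above background on every array. Boxes span the quartiles with the median in red, and whiskers run from the 5th to the 95th percentile. The medians of the 80 cytosolic genes, -0.006, 0.023 and -0.019, lie well inside the quartiles of all named genes.

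Of 27 further initiation, elongation and termination factors, 7 were higher and 20 lower with AR7, at a median of -0.04 that was below 0 under all 8 settings. With BMS614 13 were higher and 14 lower, or 9 and 18 with the processed signal scaled to the 75th percentile. Abce1, which splits ribosomes after termination, was higher with BMS614 by 0.25, and Eif3b was lower, at a difference of -0.19. With AR7 the extremes were Eif2s1 at 0.11 and Eif3j1 at -0.15.

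RNA polymerase I makes the ribosomal RNA. Of 18 genes for it and its factors, 8 were higher and 10 lower with AR7 and 11 were higher and 7 lower with BMS614. Ubtf, the factor that opens the repeats of ribosomal DNA, was 0.16 with AR7, Twistnb, a polymerase subunit, was 0.19 with BMS614, and Taf1a, of the promoter selectivity factor, was lowest with both at -0.32 and -0.41. Of 64 genes for ribosome assembly, 31 were higher and 33 lower with AR7 and 28 were higher and 36 lower with BMS614. With the processed signal scaled to the 75th percentile the counts were 17 and 47 with AR7 and 25 and 39 with BMS614. Utp20, of the small subunit processome, was highest with both, at 0.25 and 0.36, and the lowest were Tsr2 at -0.29 with AR7 and Rsl24d1 at -0.28 with BMS614.

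Among 22 genes of mTORC1 signalling and of the binding of TOP mRNAs, 12 were higher with AR7 and 11 with BMS614. Rptor, the subunit of mTORC1 that recruits substrates, was highest with AR7 at 0.16, and Akt1s1, an inhibitor of the complex, was lowest at -0.35. With BMS614 Cnbp, which binds TOP mRNAs, was highest at 0.17, and the dim probe of Tsc2 was lowest at -0.41, or 1.2 SD. No gene of these lists passed 1.5-fold in either comparison with None.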

How the data were processed

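RNA of NIH3T3 cells was measured on 3 one-colour Agilent arrays, 1 for each of 3 conditions. The authors deposited the scanner intensity of each spot from Agilent Feature Extraction 10.7.3.1, not normalized between arrays. They also deposited a table of processed intensities. The study's methods and the submitters' notes name the oligo package and RMA for these data. The table served as an alternative only, with values under 16 set to 16 before log2. Here the RMA background model and quantile normalization were applied to the median intensity of each spot in R 4.3.3 with limma 3.58.1, and log2 values were averaged over the spots of a probe with Python 3.11.15, numpy 2.4.6, pandas 2.3.3 and matplotlib 3.10.9. The design named the median intensity and no test, since each condition has 1 array. Controls and outlier spots were left out. A gene was given by its unsaturated probe of highest mean signal. A probe dim on 1 array counts by a bound, which took the higher of its own signal and the lowest signal well above background there.

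Gene names came from the RefSeq accession of each probe and the gene annotation of GRCm38.p6, found for 27235 of 55681 probes. Of 84 symbols that fitted the rule, 3 were pseudogenes and were left out. The comparison counted log2 differences past 2-fold, and past 2 SD of repeated spots in 10 bins of signal. The counting was tested on simulated data with 4-fold changes, which does not bear on small differences. The number of arrays limits the precision. Named members were those past 1.2-fold on their main probe, the 5 largest rises and falls in each comparison, paralogs, members fixed by role, and members whose probes disagreed by 0.5 or more. Other probes of members were named after their values were seen. Of the other lists, the largest rise and fall and any gene past 1.5-fold were named. The members and lists were chosen with earlier results of these data known. Alternatives changed the background, scaling, filter, probe choice and thresholds, and 1 of them was added after the data were seen. Some genes are not reported here.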

Additional observations from a re-analysis of the deposited data

How the results depend on the processing

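No member passed 2-fold under any scaling, filter or probe choice tried. At lower thresholds, 3 members passed 1.2-fold and 2 passed 1.5-fold in AR7 against None, 2 and 1 in BMS614 against None, and 1 and 1 in AR7 against BMS614. The group medians and the counts past 2 SD of repeated spots depended on the scaling. With the software's processed signal divided by its 75th percentile, the medians relative to all probes were -0.097, -0.12 and 0.037 in AR7 against None, BMS614 against None and AR7 against BMS614, and 45 and 60 members passed 2 SD in the first and second. With the RMA background scaled to the 75th percentile, and likewise on spike-in spots, the medians were -0.068, -0.12 and 0.061 and the counts were 24, 50 and 40. With the trend against signal removed, the medians were -0.034, -0.045 and 0.026 and the counts were 11, 37 and 36. Under the other settings, including the deposited table, the medians lay between -0.006 and 0.006, between 0.017 and 0.031, and between -0.030 and -0.017. Averaging all probes of a gene left 9 members past 2 SD in BMS614 against None. At 1 SD the counts were 33, 39 and 48, and at 3 SD 2, 9 and 13. The shares of other genes under these alternatives are not given here. With the processed signal the 127 other bright genes moved as well. Their medians relative to all probes were -0.089, -0.17 and 0.084 in the 3 comparisons. The cause of these shifts was not tested. Keeping only members read at low gain on all 3 arrays, an alternative added after the data were seen, left 7, 16 and 22 members past 2 SD. No paired analysis was possible because there is only 1 sample per treatment. The SD of repeated spots at the dimmest signal was 0.425 in AR7 against None, which limits Rpl3l and Rpl10l.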
